A study of Homo sapiens with 6 samples.

Results

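Metallothioneins and zinc response genes were followed in heat-treated residual MHCC97H cells, an established human hepatocellular carcinoma line, cultured with or without periostin (POSTN), a secreted matrix protein that binds integrins. The members were the probe sets annotated to exactly 1 of 9 symbols, namely MT1E, MT1F, MT1G, MT1H, MT1M, MT1X, MT2A, SLC30A1 and MTF1. These 9 genes, of 19775 named on the array, had 17 probe sets of 54613, of which 11 read metallothioneins, 3 read SLC30A1 and 3 read MTF1. All cells had been heated at 47 °C. Control cells received no POSTN (0 ng/mL) and treated cells received 100 ng/mL recombinant POSTN for 24 h, with 3 samples per condition and 1 Affymetrix Human Genome U133 Plus 2.0 array per sample. The labels number the samples of each condition 1, 2 and 3. Whether each sample was a culture of its own is not stated in them, and the p-values therefore cover only the spread among these 6 samples, which may be technical. All samples are of 1 cell line, without a sample of unheated cells. Values are log2 signals of the MAS 5.0 algorithm, as deposited.

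Metallothioneins are small cysteine-rich proteins that bind zinc, copper and cadmium in the cytosol. Free zinc activates the transcription factor MTF1, which binds metal response elements in the promoters of metallothionein genes and of SLC30A1, the zinc exporter of the plasma membrane. In liver the metallothioneins are also known to respond to glucocorticoids, to interleukin-6 and to oxidative stress. In RefSeq (GRCh38.p14) the 7 metallothionein members lie on chromosome 16 in the order MT2A, MT1E, MT1M, MT1F, MT1G, MT1H and MT1X, whereas SLC30A1 and MTF1 lie on chromosome 1.

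The metal response element, the sequence through which zinc reaches these genes, is shown first. RefSeq promoters (250 bases before to 50 after the start, GRCh38.p14) matched 5 of the 9 members, MT1H, MT1X, MT2A, SLC30A1 and MTF1. The core was searched as TGCACNC and TGCGCNC on both strands in the 250 bases before the start, and no matches overlapped in these 5 promoters. MT1H held 8 matches, MT2A 7, MT1X 4, SLC30A1 1 and MTF1 0. Of 35116 promoters, 24.8% held at least 1 match, 0.37% at least 4, 0.0313% at least 7 and 0.0171% at least 8. The windows below show the matches that lie within 100 bases of the start and have 10 bases on each side before it, which leaves out a match of MT1H and one of MT2A at 8 to 2 bases before the start. They are read 5′ to 3′ on the gene's strand, with the match in capitals. A match in the form GNGTGCA lies on the opposite strand. All are on the plus strand of the chromosome except SLC30A1.
MT2A, 88 to 82 bases before the start, chr16:56608486-56608512: agcgcggggcGTGTGCAggcagcgccc
MT2A, 54 to 48 bases before the start, chr16:56608520-56608546: gcggggctttTGCACTCgtcccggctc
MT1H, 78 to 72 bases before the start, chr16:56669726-56669752: tcagtgggtcGGGTGCAagggtggggc
MT1H, 53 to 47 bases before the start, chr16:56669751-56669777: gcagggtctcTGCACCCggctccctcc
MT1X, 78 to 72 bases before the start, chr16:56682382-56682408: cagcaggggcGGGTGCAaggacgaggc
MT1X, 53 to 47 bases before the start, chr16:56682407-56682433: gcggggcctcTGCGCCCggccctcttc
SLC30A1, 49 to 43 bases before the start, chr1:211579194-211579220: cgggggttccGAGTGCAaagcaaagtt
The windows printed for MT1H and MT1X lie at equal distances from the start, while MT1X had no match as near to it as the one of MT1H that is left out. These matches are a description of the sequence and were not tested for binding in these cells.

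Between 47.7% and 49.7% of probe sets on each array lay above a background level of 5.98, the 95th percentile of the mean signals of 107 olfactory receptor probe sets. KRT18 and KRT8, keratins of hepatocyte-derived cells, and AFP lay above that level, and 7 of 9 hepatoma lineage markers did so on their brightest probe set. The exceptions were SERPINA1 and APOA1, with mean signals within the background range. Above background, the deviations of the control and POSTN arrays numbered 1 from their condition means correlated at 0.53, and those of the arrays numbered 2 and 3 at 0.23 and 0.24, close to the 0.20 and 0.15 between unlike numbers 2 and 3. The arrays numbered 1 stood apart from the rest, so the members are given by replicate number as well as by condition. In these bulk samples, fewer cells with a transcript and less of it per cell cannot be told apart.

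Of the 17 member probe sets, 14 lay above the background level by their mean over the 6 arrays. The other 3 were MT1G 210472_at, MT1M 217546_at and SLC30A1 242716_at. All 9 metallothionein probe sets above background end in _x_at, the suffix for probe sets whose probes can also bind other transcripts. In this family of near-identical coding sequences they therefore do not separate 1 metallothionein gene from another with certainty. The reference accession of MT1X probe set 204326_x_at belongs in RefSeq to MT1L, a transcribed pseudogene of the cluster. The single MT1M probe set ranged from -0.65 to 2.09 over the 6 arrays, so MT1M was not above background on any array.

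**Figure D1:**
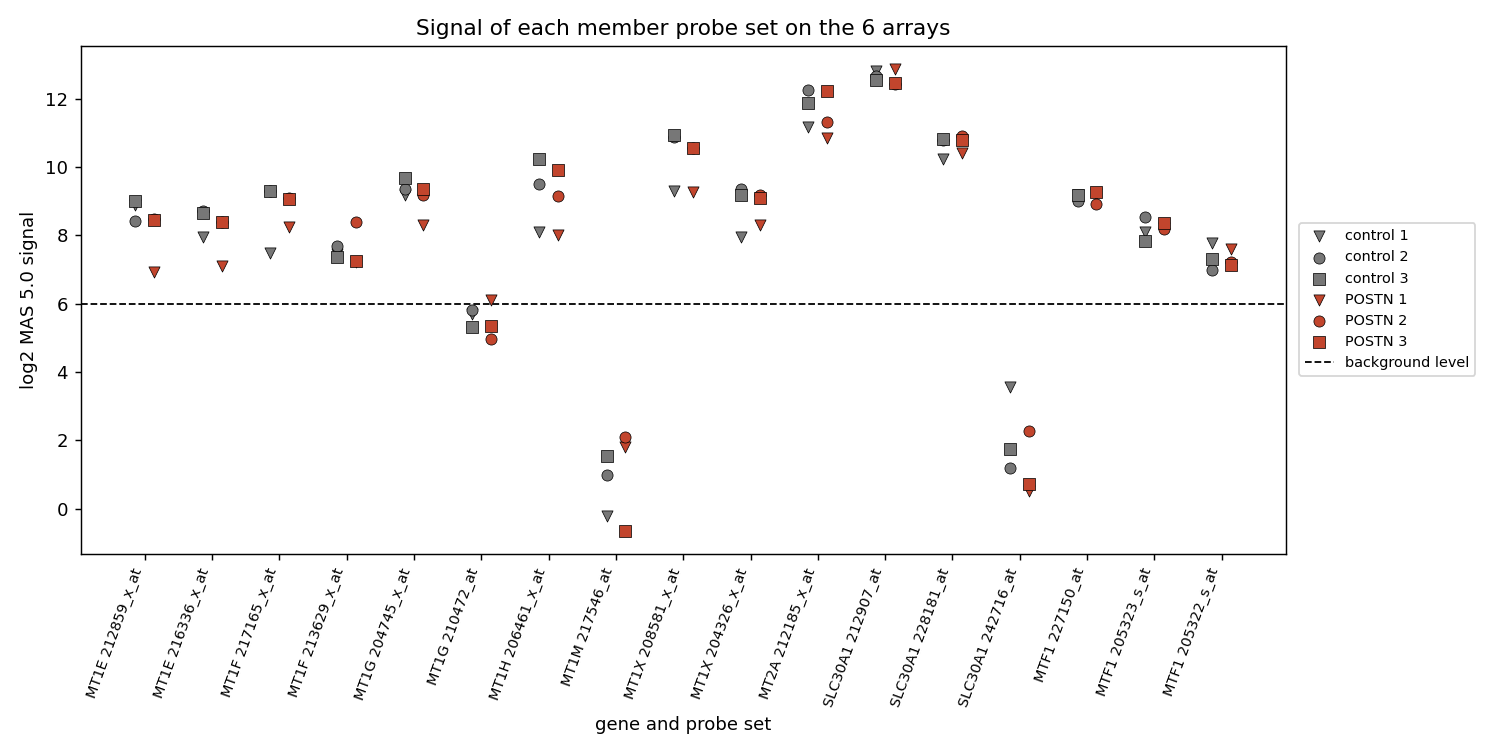
Log2 MAS 5.0 signal (vertical axis) of the 17 member probe sets (horizontal axis) on the 6 arrays. Grey marks are control and red marks POSTN arrays, triangles are arrays numbered 1, circles 2 and squares 3, with the background of 5.98 as a dashed line. The triangles lie below the other marks in both colours for MT1H, both MT1X probe sets and MT2A.

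The metallothioneins differed between replicate numbers. By limma's moderated F-test over the 3 numbers with condition in the model, 7 of 17 member probe sets passed an adjusted p under 0.05, against 4.08% of all probe sets and 8.67% of those above background. All 7 were lower on the arrays numbered 1, a direction in which 1.9% of all probe sets and 4.06% of those above background passed. They were 6 of the 11 metallothionein probe sets, reading MT1E, MT1F, MT1H, MT1X (both probe sets) and MT2A, and SLC30A1 228181_at. For the 7 metallothionein genes, each by its brightest probe set, the median log2 difference between number 1 and the mean of numbers 2 and 3 was -0.91, beside 0.0076 over all probe sets.

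MT1X 208581_x_at had log2 signals of 9.30, 10.88 and 10.94 on control arrays 1, 2 and 3, and of 9.25, 10.55 and 10.57 on POSTN arrays 1, 2 and 3. The 2 arrays numbered 1 lay within 0.1 of each other and far below the other 4, which did not overlap with them. The log2 difference between number 1 and the mean of the others was -1.46 (standard error 0.094, n = 2 against 4 arrays), or 2.75-fold lower, with an adjusted p of 4.0e-05 (limma, F-test). The other MT1X probe set, 204326_x_at, read 7.94, 9.35 and 9.19 in control and 8.30, 9.18 and 9.10 with POSTN. It was also lower on both arrays numbered 1 (log2 difference -1.08, standard error 0.14, adjusted p = 0.0042 from limma).

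MT1H had the most element matches among the 5 member promoters that could be searched. Its probe set, 206461_x_at, read 8.09, 9.50 and 10.23 in control and 8.001, 9.15 and 9.91 with POSTN. Again both arrays numbered 1 were lowest, and within each condition number 2 lay below number 3. The log2 difference was -1.66 (standard error 0.12, 3.15-fold lower, adjusted p = 4.3e-05 from limma). Numbers 2 and 3 differed by -0.74 on the log2 scale (95% confidence interval -1.04 to -0.45, adjusted p = 0.79 from limma). Over the whole array, 0 probe sets differed between numbers 2 and 3 at an adjusted p under 0.05 in limma, and 6.14% did at an unadjusted p under 0.05, among them 2 members.

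MT2A, usually the most widely expressed metallothionein, was read by 212185_x_at at 11.16, 12.24 and 11.87 in control and at 10.85, 11.31 and 12.21 with POSTN. The arrays numbered 1 were lowest, but POSTN 2 lay only slightly above control 1. The log2 difference was -0.91 (standard error 0.18, 1.87-fold lower, adjusted p = 0.034 from limma), and it was of like size within control (-0.90) and within POSTN (-0.91). MT1F 217165_x_at read 7.47, 9.30 and 9.29 in control and 8.24, 9.10 and 9.08 with POSTN. Numbers 2 and 3 were close together and number 1 lay apart in both conditions, with a log2 difference of -1.34 (standard error 0.19, adjusted p = 0.0079 from limma).

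The probe sets of MT1F, MT1E and MT1G did not all give the same picture. The dimmer MT1F probe set, 213629_x_at, read 7.44, 7.68 and 7.36 in control and 7.23, 8.40 and 7.24 with POSTN, so that number 1 overlapped with number 3, and it did not pass (adjusted p = 0.28 from limma). MT1E 216336_x_at read 7.96, 8.71 and 8.65 in control and 7.10, 8.37 and 8.37 with POSTN, and was lower on both arrays numbered 1 (log2 difference -0.995, standard error 0.18, adjusted p = 0.022 from limma). MT1E 212859_x_at read 8.89, 8.42 and 8.99 in control and 6.93, 8.47 and 8.45 with POSTN. On this probe set only POSTN 1 stood below the rest, and the difference of -0.67 did not pass (adjusted p = 0.46 from limma). MT1G 204745_x_at read 9.18, 9.35 and 9.69 in control and 8.29, 9.16 and 9.36 with POSTN, with a difference of -0.66 (standard error 0.15). The adjusted p in limma was 0.052 from the F-test, which it did not pass, and 0.023 from the single contrast of number 1 with the mean of the others. Here control 1 overlapped with POSTN 2.

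Both arrays numbered 1 lay below all 4 others on 7 of the 17 member probe sets, the 7 named above, compared with 12.7% of all probe sets and 18.6% of those above background. The 2 metallothionein probe sets within the background range, MT1G 210472_at and MT1M 217546_at, differed by 0.54 (95% confidence interval -0.72 to 1.81) and -0.19 (95% confidence interval -2.37 to 1.98). These are intervals that allow a change as large as that of MT1X in either direction for MT1M, and a fall of at most 0.72 for this MT1G probe set. MT1HL1, a metallothionein gene on chromosome 1 outside the members, read 8.76, 10.58 and 10.93 in control and 8.52, 10.01 and 10.56 with POSTN on 211456_x_at, a log2 difference of -1.88 (standard error 0.099, adjusted p = 8.2e-06 from limma). Its probe set too may read transcripts of the cluster on chromosome 16.

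**Figure D2:**
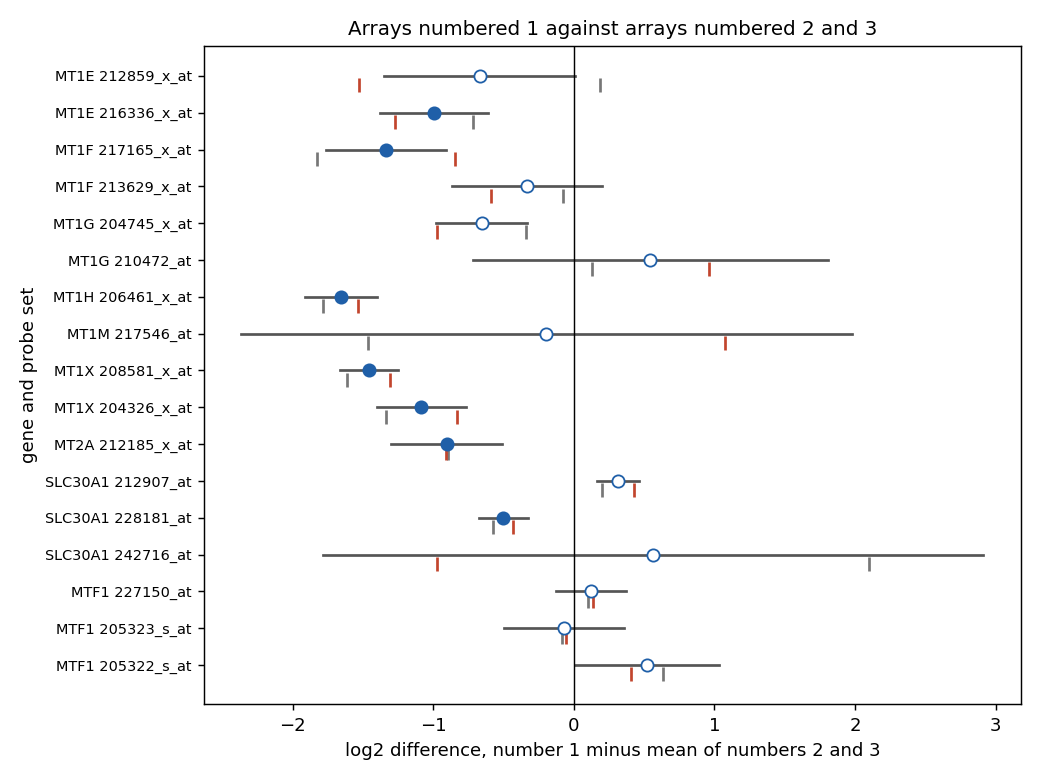
Log2 difference between arrays numbered 1 and the mean of arrays numbered 2 and 3 (horizontal axis) for each member probe set (vertical axis), with 95% confidence intervals from limma over 6 arrays. Filled points passed the F-test over the 3 numbers at an adjusted p under 0.05, and grey and red ticks give the difference within control and within POSTN arrays alone. The 7 filled points lie between -1.66 and -0.50, and for each of them both ticks lie below 0.

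The calls rested on few arrays and on the variance model. MT1H and both MT1X probe sets passed without any 1 of the 6 arrays. MT2A did not pass without control replicate 1 (adjusted p = 0.095) or POSTN replicate 1 (0.10), MT1E 216336_x_at without POSTN replicate 1 (0.25), and MT1F 217165_x_at (0.0504) and SLC30A1 228181_at (0.12) without control replicate 1. With a prior variance that does not follow the mean signal, limma called 0 members and 0 probe sets in all (lowest adjusted p = 0.45), although 4 members had an unadjusted p under 0.05.

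Measures of RNA and of other cells were compared over the same arrays. The log2 ratio of the 3′ to the 5′ GAPDH control probe set was -0.074 and -0.062 on the arrays numbered 1 and between -0.053 and -0.0018 on the others, and that of beta-actin was 0.90 and 0.93 against 0.81 to 1.09. Of 7 stellate cell and fibroblast markers, 3 lay above background and 1, DCN on 201893_x_at, passed the F-test (log2 difference -1.002). The summed linear signal of that list was 2905 to 3379 on the arrays numbered 1 and 3441 to 3795 on the others. Of 4 endothelial markers, 2 lay above background and PECAM1 passed (0.51), with sums of 1411 to 1667 against 1007 to 1269. Of 4 measured leukocyte markers, 1 lay above background and none passed, with sums of 95.9 to 145 against 144 to 203. Of these 3 lists, the markers above background were LUM (mean log2 signal 11.17), DCN (9.26) and COL1A1 (8.22), PECAM1 (10.10) and KDR (6.83), and CD3E (6.19). The others, COL1A2, COL3A1, ACTA2, PDGFRB, PTPRC, CD14, MS4A1, CDH5 and VWF, had mean signals within the background range. Of 9 hepatoma lineage markers, TF (2.83), SERPINA1 (2.92) and ALB (1.85) passed and were higher on the arrays numbered 1. The other 6 did not pass, and the differences of APOB (-0.65), TTR (-0.44), KRT18 (-0.16) and KRT8 (-0.035) were below 0. The summed signal of that list was 47008 to 51016 on the arrays numbered 1 and 50095 to 54948 on the others. The part of these differences in the metallothionein result was not tested.

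SLC30A1, the zinc exporter, gave opposite directions on its 2 bright probe sets. On 212907_at it read 12.81, 12.67 and 12.55 in control and 12.87, 12.43 and 12.45 with POSTN. Both arrays numbered 1 were highest, by 0.32 on the log2 scale (standard error 0.068). The adjusted p in limma was 0.055 from the F-test and 0.019 from the single contrast of number 1 with the mean of the others. On 228181_at it read 10.23, 10.79 and 10.82 in control and 10.41, 10.89 and 10.79 with POSTN. Here both arrays numbered 1 were lowest, by a log2 difference of -0.50 (standard error 0.079, adjusted p = 0.012 from limma). A level of SLC30A1 transcripts by replicate number is therefore not given by these probe sets together. The third probe set, 242716_at, ranged from 0.53 to 3.55, within the background range on all 6 arrays.

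MTF1, the zinc sensor and transcription factor, lay above background on all 3 of its probe sets, and none passed the F-test over the numbers. The brightest, 227150_at, read 9.19, 8.998 and 9.18 in control and 9.21, 8.90 and 9.25 with POSTN, with a log2 difference between number 1 and the others of 0.12 (95% confidence interval -0.13 to 0.37). The arrays numbered 1 and 3 overlapped on it. MTF1 205323_s_at differed by -0.071 (95% confidence interval -0.50 to 0.35). MTF1 205322_s_at was higher on both arrays numbered 1 (7.79 and 7.59 against 6.99 to 7.31), by 0.52 (95% confidence interval 0.010 to 1.03, adjusted p = 0.46 from the F-test in limma). On the brightest probe set, the interval excludes a fall of more than 0.13 on the log2 scale.

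POSTN was then compared with control. No member passed an adjusted p under 0.05 in limma (0 of 17), as was the case for 0% of all probe sets. At an unadjusted p under 0.05 there were also 0 of 17 members in limma (3.02% of all probe sets), and 0 by the methods' t-test (3.62%). Adding the study's fold change limits, over 2 or under 0.5, to the unadjusted limma p also gave 0 members (2.56%). The p-value in this count is limma's, so it is not the study's own criterion. The conditions overlapped on all 17 member probe sets, while they did not overlap on 7.94% of all probe sets. For a single probe set the exact two-sided permutation test of 3 against 3 arrays cannot give a p under 0.10.

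MT2A was at 11.76 ± 0.55 (SD, n = 3) in control and 11.46 ± 0.69 (SD, n = 3) with POSTN, a log2 difference of -0.30 (95% confidence interval -1.04 to 0.44). MT1X was at 10.37 ± 0.93 (SD, n = 3) and 10.12 ± 0.75 (SD, n = 3) on its brightest probe set, a difference of -0.25 (95% confidence interval -1.25 to 0.75). MT1H was at 9.28 ± 1.09 (SD, n = 3) and 9.02 ± 0.96 (SD, n = 3), a difference of -0.25 (95% confidence interval -1.47 to 0.96). The SD within a condition exceeded the difference in each of these genes. It holds the gap between number 1 and the other numbers. For MT1H, and for MT2A with POSTN (11.31 and 12.21), it also holds a wide distance between numbers 2 and 3. The largest difference among the metallothioneins above background was that of MT1E 212859_x_at, at -0.82 (standard error 0.37), which had an adjusted p of 0.9999 in limma and an unadjusted p of 0.052. It came mainly from number 1, where POSTN lay 1.96 below control (log2 difference -1.96), beside 0.051 in number 2 and -0.55 in number 3.

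Over the brightest probe sets of the 7 metallothionein genes the median log2 difference between POSTN and control was -0.25, beside 0.010 over all probe sets. It was 0.034 without control replicate 3, 0.0048 without POSTN replicate 1 and -0.056 without control replicate 2, but -0.60 without control replicate 1 and -0.68 without POSTN replicate 3. On 212907_at the difference of SLC30A1 was -0.094 (95% confidence interval -0.38 to 0.19). On 228181_at it was 0.086 (95% confidence interval -0.31 to 0.48). For MTF1 it was 0.00099 on 227150_at, with a 95% confidence interval of -0.32 to 0.33, beside 0.084 on 205323_s_at and -0.045 on 205322_s_at. These intervals bound the change of both genes on their brightest probe sets more narrowly than those of the metallothioneins.

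Because same-numbered arrays deviated together above background, clearly so for number 1 and less so for numbers 2 and 3, the comparison was also made with the replicate number as a block. With the block, 0 of 17 members passed an adjusted p under 0.05 in limma (lowest adjusted p = 0.97 among the members), and 5 had an unadjusted p under 0.05, all lower with POSTN, against 4.76% of all probe sets in either direction and 2.18% in this one. These were MT1G 204745_x_at (-0.47, 95% confidence interval -0.77 to -0.16), both MT1E probe sets (-0.82 and -0.49), MT1X 208581_x_at (-0.25, 95% confidence interval -0.44 to -0.053) and MT1H (-0.25, 95% confidence interval -0.49 to -0.012). POSTN lay below control in all 3 numbers for 4 of the 17 member probe sets, which are these without MT1E 212859_x_at, compared with 12.1% of all probe sets and 13.4% of those above background. MT1X 208581_x_at, for example, differed by -0.044, -0.33 and -0.37 in numbers 1, 2 and 3, and MT1G 204745_x_at by -0.89, -0.18 and -0.33. MT2A had an unadjusted p of 0.10 with the block in limma, and lay above control in number 3 (0.34). None of these differences passed the correction, so they are not calls.

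**Figure D3:**
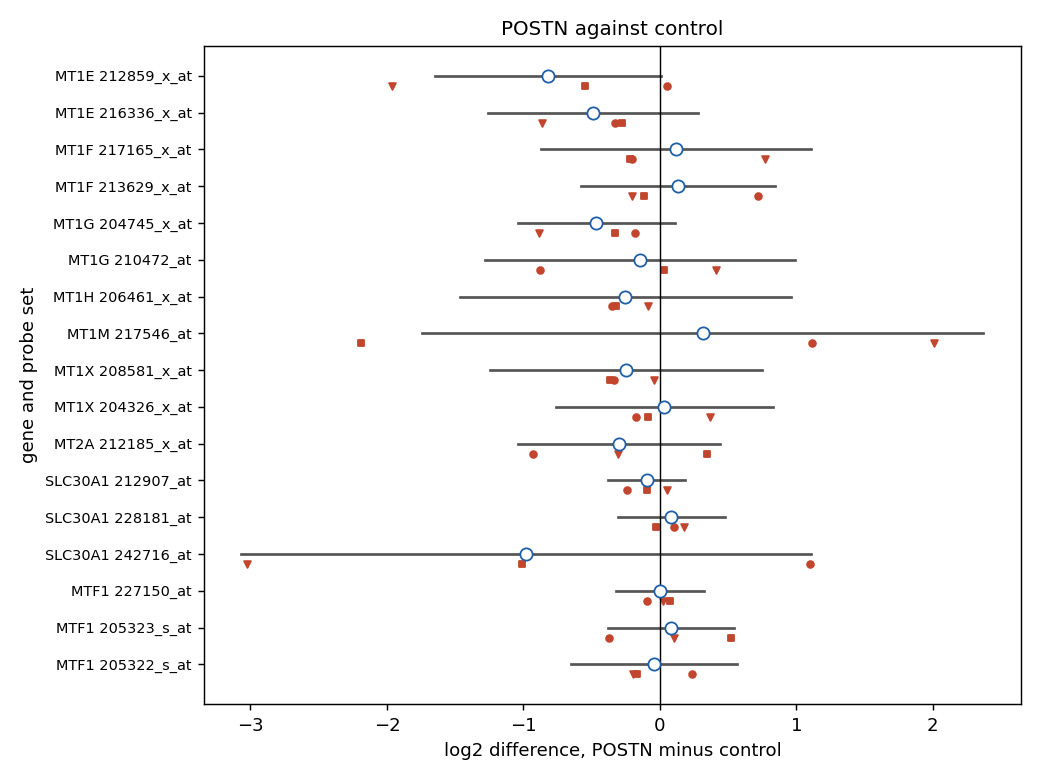
Log2 difference between POSTN and control (horizontal axis) for each member probe set (vertical axis), with 95% confidence intervals from limma over 3 against 3 arrays without the replicate block. Small red marks give POSTN minus control within number 1 (triangles), 2 (circles) and 3 (squares). All points are open, since 0 of 17 passed, and all 17 intervals include 0.

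Other genes of metal handling were counted by their brightest probe sets. Of 9 zinc exporters of the SLC30 family outside the members, 5 lay above background and 0 of 9 passed the F-test over the numbers in limma. SLC30A7, which loads zinc into the Golgi, differed by -0.27 between number 1 and the others, and SLC30A4, an exporter of vesicles, by 1.09, neither past the test. Of 14 zinc importers of the SLC39 family, 11 lay above background and 0 of 14 passed, from SLC39A3 at -0.29 to SLC39A8 at 0.41. SLC39A14, the importer known to be induced by interleukin-6 in liver, read 12.15, 12.36 and 12.26 in control and 12.14, 12.31 and 12.20 with POSTN. Of 10 genes of copper transport, 9 lay above background and 0 passed, from COX17 at -0.61 to SCO2 at 0.35. The zinc and copper transporters outside the members thus had 0 calls in this test, which 4.08% of all probe sets and 8.67% of those above background passed. At these shares, 0 calls among so few genes do not set the transporters apart from the array. Counted in the same way, 4 of 7 metallothionein genes passed, all on _x_at probe sets that do not separate these genes with certainty. The member SLC30A1 did not pass on its brightest probe set, 212907_at (adjusted p = 0.055 from limma), but passed on 228181_at (0.012). In the single contrast of number 1 with the mean of the others, which 6.21% of all probe sets and 9 of the 17 member probe sets passed, the importers SLC39A6 (-0.21, adjusted p = 0.035 from limma) and SLC39A10 (0.27, adjusted p = 0.042 from limma) also passed. At an unadjusted p under 0.05 in the same F-test there were 1 of 9 exporters, 6 of 14 importers and 2 of 10 copper genes, beside 10 of the 17 member probe sets, 15.9% of all probe sets and 28.2% of those above background.

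Lists of other inputs that metallothioneins are known to answer held calls in both directions. Of 8 measured NRF2 and oxidative stress targets, HMOX1, the heme oxygenase (0.78, adjusted p = 0.00051 from limma), and SQSTM1, an autophagy receptor (0.52), were higher on the arrays numbered 1, and SLC7A11, a cystine transporter (-0.44), was lower. Of 8 measured glucocorticoid receptor targets, TSC22D3 (0.42) was higher and the kinase SGK1 (-0.70) was lower. TAT had the largest difference of that list (0.85) but did not pass (adjusted p = 0.25 from limma). Of 6 measured heat shock genes, 3 were lower and 3 higher on the arrays numbered 1, and only HSP90AA1 (-0.27) passed. HSPA6 (0.69) and DNAJB1 (0.31) were higher on both arrays numbered 1 and did not pass the F-test (adjusted p = 0.25 and 0.069 from limma). Of 10 measured acute phase and STAT3 targets, the fibrinogen chains FGA (2.03), FGB (2.65) and FGG (2.22) were higher, while SOCS3, the feedback inhibitor of cytokine signalling, was lower (-1.12, adjusted p = 0.0018 from limma). SOCS3 read 8.22, 9.67 and 9.46 in control and 8.54, 9.45 and 9.44 with POSTN, so that both arrays numbered 1 were lowest, as for MT1X. With POSTN, 0 genes of these 7 lists passed an adjusted p under 0.05 in limma, and 0 had an unadjusted p under 0.05 there or by the methods' t-test.

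**Figure D4:**
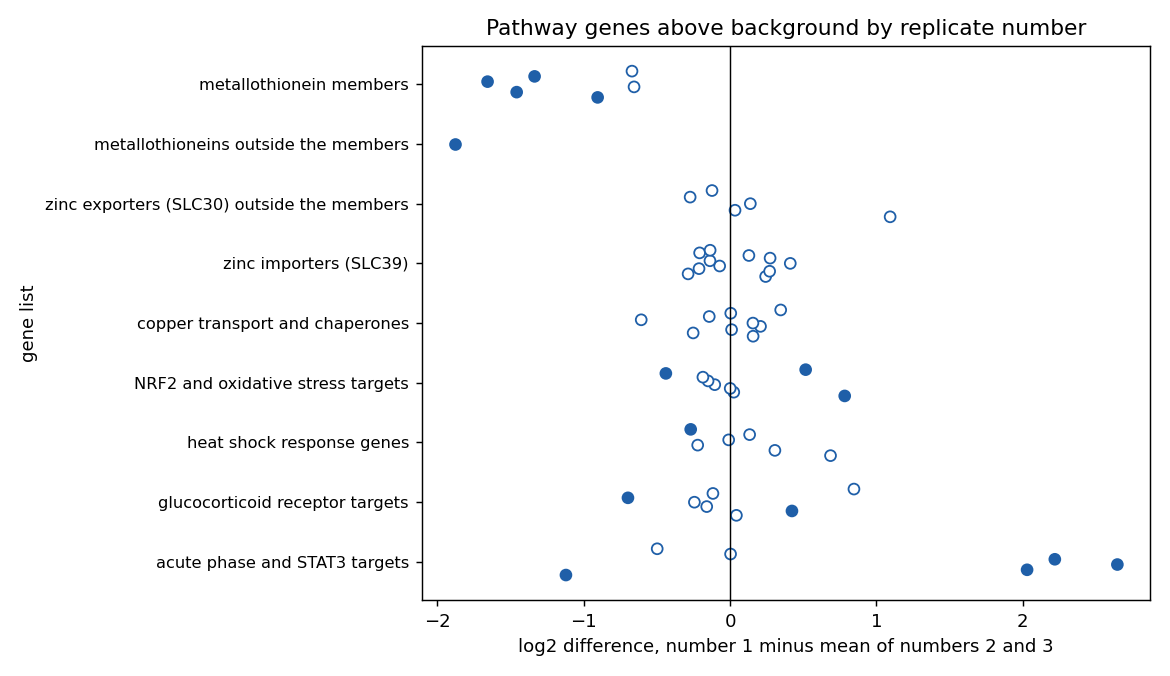
Log2 difference between arrays numbered 1 and the mean of the others (horizontal axis) for the brightest probe set of each gene above background, by gene list (vertical axis). Filled points passed the F-test over the replicate numbers at an adjusted p under 0.05. The metallothionein points lie between -1.88 and -0.66, while zinc and copper transporters outside the members lie on both sides of 0 and none is filled.

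The mean deviation of the brightest probe sets of the 6 metallothionein genes above background was -0.53, 0.40 and 0.62 on control arrays 1, 2 and 3 and -0.95, 0.077 and 0.38 on POSTN arrays 1, 2 and 3. Within each condition the order of the numbers was the same, and each POSTN array lay below the control array of its number. Among 3830 probe sets of other genes above background with a range of at least 1 on the log2 scale, those most like this pattern over the 6 arrays read BMAL2, a clock transcription factor (Pearson r = 0.997), TRPV2, a cation channel (0.993), MT1HL1 (0.990), PXN, the focal adhesion protein paxillin (0.989), and DPH6, an enzyme of diphthamide synthesis (0.987). BMAL2 220658_s_at read 8.78, 9.63 and 9.84 in control and 8.46, 9.43 and 9.63 with POSTN, and PXN 201087_at read 10.32, 11.01 and 11.04 in control and 10.03, 10.85 and 10.96 with POSTN. All 5 share the gap between number 1 and the rest over the same 6 arrays, so these correlations are a description only. Among the 9 metallothionein probe sets above background the 36 pairwise correlations ranged from -0.088 to 0.986, with a median of 0.757, and probe sets that may bind the same transcripts are not independent.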

How the data were processed

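MAS 5.0 signals were made by the authors, who name the R package affy without a version. The deposited values are log2 signals, with a linear mean of 500 on all 6 arrays when the highest and lowest 2% are left out. The table has 54675 probe sets, of which 62 controls were left out. MAS 5.0 subtracts mismatch signal, so dim probe sets vary widely. No arrays held identical values. The precision is limited by the number of arrays, and the median standard error of a POSTN difference was 0.18 above background and 0.55 over all probe sets.

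Gene symbols came from the platform's annotation (41091 probe sets with 1 symbol, 1801 with several, 11721 with none), and promoters from RefSeq. Tests were made in R 4.3.3 with limma 3.58.1 (lmFit, eBayes with a trend) over all 54613 probe sets, with Benjamini-Hochberg adjustment. POSTN was compared with control without other terms, and replicate numbers by an F-test with condition in the model. The numbers pair the arrays by the data only: deviations of same-numbered arrays correlated at 0.025 to 0.088 over all probe sets and at 0.23 to 0.53 above background, where control 2 with POSTN 3 gave 0.20 and control 3 with POSTN 2 gave 0.15, so numbers 2 and 3 are hardly paired by them. All member probe sets are named. Of the pathway lists, calls and the extremes above background are named, and SLC39A14 was chosen after its values were seen. The 5 genes most like the metallothioneins were named by their correlation over the 6 arrays. Members and lists were chosen with earlier results of these data known. On data simulated for 54613 probe sets, the F-test recovered 7% of 100 probe sets with a log2 change of 1 in number 1 and 27% of 100 with a change of 2. The POSTN fit recovered 62% and 91% with changes of 1 and 2, with 14 false calls. The simulated spread was the residual after condition and replicate number, so it lacked the gap between numbers. The POSTN fit of the real arrays keeps that gap in its error. For the brightest metallothionein probe sets the median SD was 0.82 within condition and 0.40 after both terms. The recovery of the POSTN fit therefore does not give its power for the metallothioneins. That of the F-test does not give its power in these arrays either. Each simulated spread was a residual estimated from 6 arrays, and few probe sets were changed, whereas 2230 passed on the real arrays. Alternatives were 2 other normalizations, log2(value + 50), a filter on dim probes, omission of _x_at and _s_at sets, no trend, array weights, the replicate block, other contrasts, the methods' t-test and leaving out arrays.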

Additional observations from a re-analysis of the deposited data

How the results depend on the processing

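POSTN against control gave 0 member calls under every alternative run, the replicate block included (0 calls, median metallothionein difference -0.25). That median ranged from -0.68 to 0.034 when 1 array was left out. It was 0.084 after omission of the _x_at and _s_at sets, where 2 dim metallothionein probe sets remain. For replicate number, the 7 member calls became 5 to 10 when 1 array was left out and 5 to 9 under the other alternatives, except 2 after omission of the _x_at and _s_at sets and 0 without a trend in the prior variance. The 2 calls after that omission were SLC30A1 212907_at and 228181_at, in opposite directions (0.32 and -0.50), and no metallothionein call remained. MT2A and MT1E 216336_x_at also lost their calls with log2(value + 50) (adjusted p = 0.13 and 0.063 from limma) and without condition in the model (0.067 and 0.083). The median difference of the metallothioneins between number 1 and the others was -0.91, and -1.12 with only probe sets above background. It lay between -1.47 and -0.97 when 1 array was left out. Within control it was -1.47, within POSTN -0.97, and without the _x_at and _s_at sets 0.17. The values of -1.47, within control and without POSTN replicate 1, are those of MT1M 217546_at, which was not above background on any array. They therefore do not give the size of the metallothionein difference. Where a number is left with 1 array, that array is assumed to vary like the others. No member called by replicate number changed direction under the alternatives that held it. The causes were not tested. Signals within the background range limit MT1M, MT1G 210472_at and SLC30A1 242716_at.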
